A study of Mus musculus with 10 samples.

Results

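The phosphoinositide 3-kinase (PI3K), AKT and mTOR pathway was described in lung ILC2 through 30 of its genes, picked by gene symbol for their place in the pathway and not by any measured value. All 30 were found among the 54838 gene rows of the count table, and 27 of them held enough counts for the test. ILC2, the group 2 innate lymphoid cells, lack antigen receptors and release type 2 cytokines in tissues. They had been sorted from lungs of C57BL/6 mice, either wild type (WT, 5 libraries) or c-Maf KO (KO, 5 libraries), after papain, an irritant protease, had raised inflammation in the lung. Both genotypes were littermates kept together, per the labels, and both received papain. c-Maf is a transcription factor of the basic leucine zipper family. The sort took cells negative for lineage markers and positive for CD90.2, whatever their ST2 and KLRG1. The sources used here do not give how Maf was deleted or in which cells, the age and sex of the animals, or the dose and timing of papain. Libraries are numbered 1 to 5 within a genotype in the order of deposit. Since nothing states that each library came from its own mouse, p-values measure only the spread between these libraries, which may be technical.

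PI3K turns the membrane lipid PIP2 into PIP3, which recruits PDK1 and AKT to the membrane, and AKT then phosphorylates GSK3, FOXO factors and TSC2. The TSC1-TSC2 complex holds the small GTPase RHEB inactive, and RHEB bound to GTP switches on mTOR complex 1, which drives protein synthesis and growth through S6 kinase. In lymphocytes this route carries signals of cytokine and costimulatory receptors, and the lipid phosphatases SHIP1 and INPP4B act against it.

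The 2 groups of libraries differed in more than genotype. WT libraries held 21400938 to 24489987 counts and KO libraries 3620002 to 9867580. Spearman's rho across genes was 0.808 to 0.875 between WT libraries and 0.345 to 0.464 between KO libraries, as a description of libraries that share all genes. Maf itself had 1412 to 3832 counts in WT and 0, 0, 0, 108 and 0 counts in KO libraries 1 to 5. Each of 12 ILC2 markers had over 3 counts in at least 1 library of either genotype, and their summed level per library size was 6771 to 10613 CPM (counts of a gene relative to its library's total) in WT and 749 to 15320 CPM in KO. The lowest of these was KO library 1, in which the summed red-cell (erythroid) markers stood at 189610 CPM, against 107 CPM at the lowest in KO and 1.39 to 9.19 CPM in WT. The ILC2 sums hide differences between markers. In KO libraries 1 to 5, Thy1 had 8, 89243, 13751, 1752 and 462 counts, against 13252 to 19629 in WT. Klrg1 had 1, 478, 2, 371 and 1496 (WT 4990 to 10493), and Il5 0, 1, 23, 72 and 345 (WT 2839 to 4705). Gata3, Rora, Il1rl1 and Il7r had at least 150 counts in each KO library. Macrophage and dendritic cell markers reached 1.37 to 509 CPM in WT and 0 to 6.52 CPM in KO, with over 3 counts in some library for 4 of 6 markers in WT and 1 of 6 in KO. The endothelial marker pair stood at 37.4 to 166 CPM in WT and 0 to 13.7 CPM in KO, all of it from Pecam1, while Cdh5 was at 0 in every library. For T cells, 3 of 5 markers in WT and 1 of 5 in KO did so, with Cd8a at 0, and the NK cell markers Ncr1, Klrb1c and Eomes were at 0 throughout. The part of these other cell types in the results below was not tested, and since all KO libraries were shallower, depth and genotype cannot be told apart. In such bulk libraries, fewer cells of a type and less RNA per cell cannot be told apart either.

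Of the pathway genes, 5 passed the test, all of them lower in KO: Akt1, the AKT isoform found in most cells, Gsk3a, a kinase that AKT inactivates, both subunits of the TSC brake, Tsc1 and Tsc2, and Deptor, an inhibitor that binds mTOR. Of the 27 genes tested, 5 fell (18.5%), 0 rose and 22 did not pass (edgeR quasi-likelihood test, Benjamini-Hochberg adjusted p below 0.05 over 7490 genes). Among all 7490 genes, 27.1% were called lower and 1.5% higher, so the share of lower calls in the pathway was not above this background. The median log2 fold change (KO against WT) was 0.44 for the 27 and −0.47 for all genes tested. Under other scalings of the same fit, the median was 1.16 for the 27 and 0.09 for all genes with RLE, and −1.23 and −1.77 with library size alone. Other tools gave 1.12 and 0.04 (DESeq2) and −3.12 and −3.58 (voom). With DESeq2, 6 of the 30 were lower, the same 5 and Pik3r2, and 3 were higher, Pik3ca, Inpp4b and Rictor. Over all genes, DESeq2, which was run on the 19014 genes with a count, called 2551 lower and 1470 higher. It gave no adjusted p for some genes, Pik3ap1, Pik3cb and Pik3c3 among them. The shares it called among genes with an adjusted p were not computed, so its pathway calls are not set against a background. The main edgeR fit called 2027 lower and 112 higher.

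**Figure D1:**
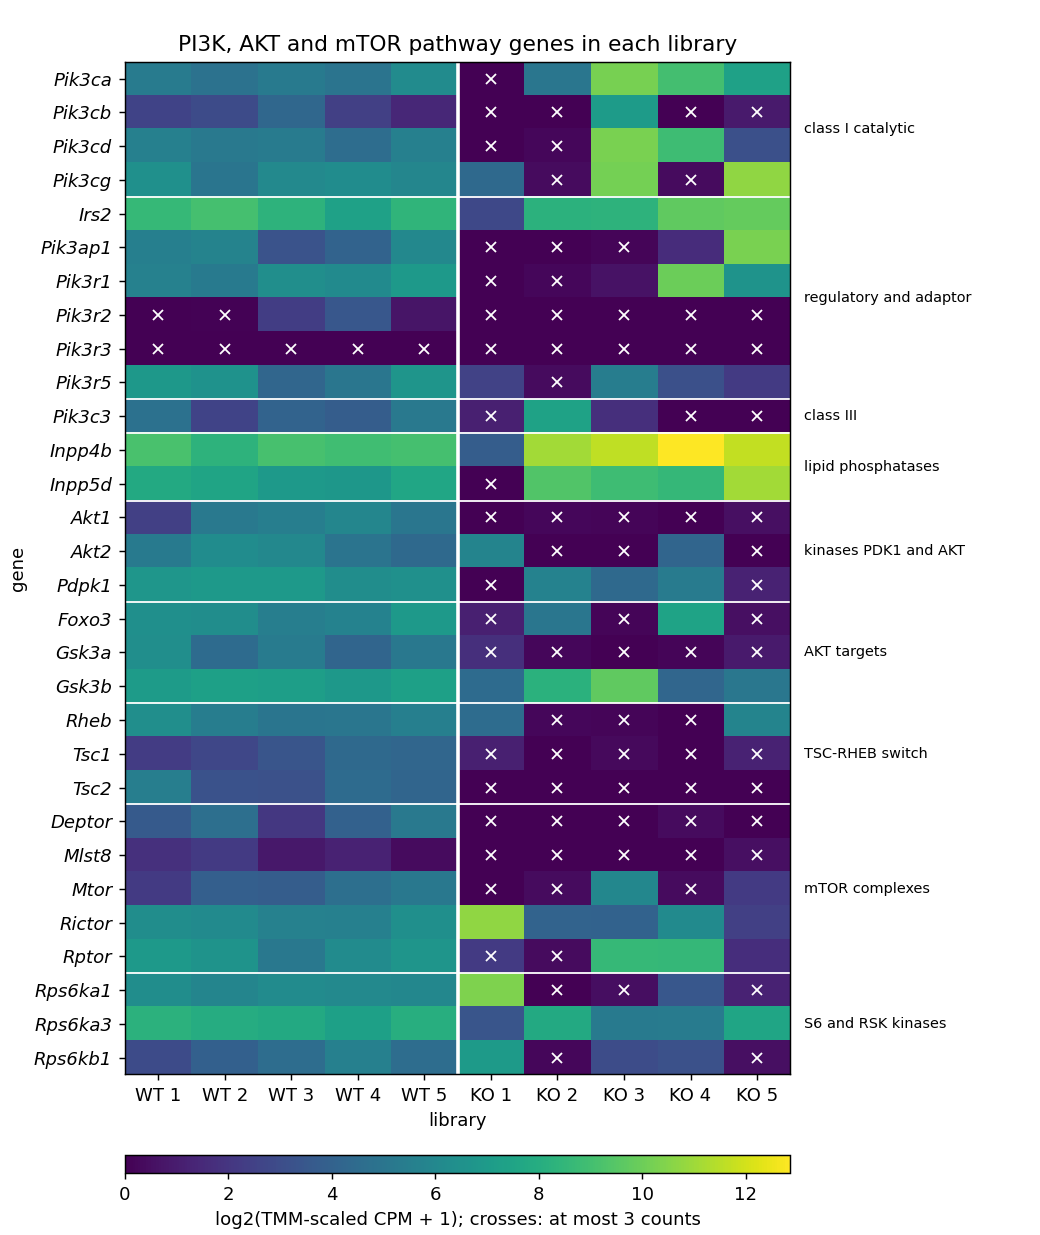
Heat map of the 30 pathway genes (rows, grouped by role) in the 5 WT and 5 KO libraries (columns), coloured by log2(TMM-scaled CPM + 1), with a cross where a library held at most 3 counts. In WT, crosses appear only for Pik3r2 and Pik3r3, while each KO column has crosses, and cells above all WT cells of the same gene, in different rows.

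**Figure D2:**
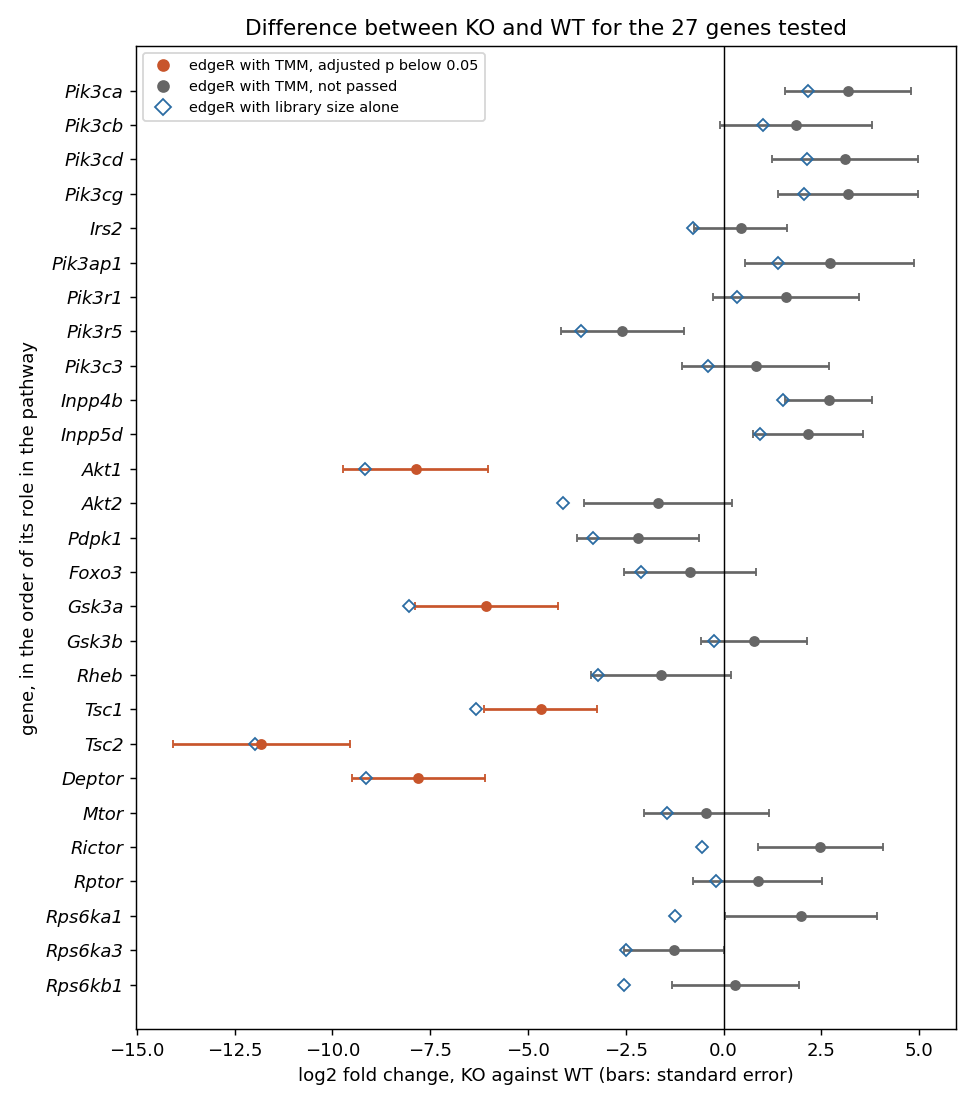
Log2 fold change of KO against WT for the 27 genes tested, with standard errors as bars. Filled points use TMM scaling and are coloured where the adjusted p is below 0.05, and open diamonds use library size alone, which moved each of the 27 to the left. The position of Tsc2, with 0 counts in KO, depends on the prior count of the fit.

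Akt1 was close to absent from the KO libraries. Akt1 (ENSMUSG00000001729, GRCm38 chromosome 12, 112653821 to 112674884, minus strand, protein coding) had 157, 1578, 1497, 2611 and 1434 counts in WT libraries 1 to 5 and 0, 1, 1, 0 and 1 counts in KO libraries 1 to 5. Every KO library lay below every WT library, and WT library 1 stood far below the other WT libraries. In TMM-scaled CPM the Akt1 level was 35.0 ± 19.7 in WT and 0.145 ± 0.179 in KO (SD, n = 5 each). With the counts of each genotype summed and divided by its summed effective library sizes, WT was 289 times KO, with a 95% counting interval of 99.0 to 1404 that covers counting error only (edgeR adjusted p = 0.00297).

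Akt2, the isoform best known from insulin signaling, had 1330, 3427, 2137, 1338 and 885 counts in WT and 47, 0, 0, 123 and 0 counts in KO. It was thus found in KO libraries 1 and 4 alone, at 55.3 and 17.5 TMM-scaled CPM against 20.1 to 76.6 CPM in WT, and the groups overlapped. Its log2 fold change was −1.67 ± 1.89 (SE, adjusted p = 0.58 by edgeR), and it turned positive with RLE size factors (0.42). Per kilobase of merged exons, the ratio of Akt1 to Akt2 within a WT library ran from 0.205 to 3.40 (median 1.22), so neither isoform was the higher in all WT libraries. No KO library held over 3 counts of both. Pdpk1, which encodes PDK1, the kinase that activates AKT, had 3799, 5341, 3895, 3473 and 3827 counts in WT and 0, 335, 148, 278 and 3 counts in KO. All 5 KO libraries of Pdpk1 were below all 5 WT libraries (102 ± 18.9 and 22.3 ± 22.5 TMM-scaled CPM). For Pdpk1, exact permutation (two-sided, on log2 of CPM + 1) gave p = 0.00794, the smallest that 5 against 5 allows, and an adjusted p of 0.0268 over all 7490 genes. The edgeR log2 fold change of Pdpk1 was −2.19 (SE 1.56) and did not pass (adjusted p = 0.353). With voom it passed (adjusted p = 0.0157). Its adjusted p ran from 0.0157 to 0.405 over the other scalings, tools and filters that keep all libraries, which are the alternatives meant by ranges here.

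The GSK3 pair differed in how many KO libraries held them. Gsk3a (ENSMUSG00000057177, chromosome 7, 25228258 to 25237851, minus strand) had 2846, 980, 1304, 773 and 1510 counts in WT and 2, 1, 0, 1 and 2 in KO, so no KO library reached the lowest WT library. The Gsk3a level was 38.8 ± 25.5 TMM-scaled CPM in WT and 0.704 ± 0.983 in KO, a log2 fold change of −6.06 ± 1.82 (SE, adjusted p = 0.0162 by edgeR). With RLE size factors its log2 fold change was −4.41 and the call was lost (adjusted p = 0.0936), and its adjusted p ran from 0.00241 to 0.0936 over the alternatives. A share of 28.3% of its exon bases lies within another annotated gene, where reads may go uncounted. Gsk3b, the paralog with which it shares most substrates, had 4631, 6947, 4821, 5191 and 6894 counts in WT and 18, 1974, 6158, 124 and 77 in KO. Every KO library thus held some Gsk3b, and KO library 3 gave 73.7% of the KO counts. In TMM-scaled CPM Gsk3b stood at 141 ± 17.5 in WT and 242 ± 356 in KO. Its log2 fold change was 0.78 ± 1.35 (SE, adjusted p = 0.729 by edgeR), and it was −0.23 with library size alone and −0.54 without KO library 3. Whether the fold changes of the 2 paralogs differ was not tested. Foxo3, a transcription factor that AKT keeps out of the nucleus, had 2944, 3476, 1471, 2296 and 5223 counts in WT and 1, 213, 1, 1216 and 1 in KO. It was high in KO library 4 (173 TMM-scaled CPM, above the WT maximum of 119, but inside the WT range with library size alone), lower than all WT libraries in the other 4, and did not pass (edgeR log2 fold change −0.86 ± 1.69, SE, adjusted p = 0.766). With voom it did (−4.58, adjusted p = 0.0348), in a range of 0.0319 to 0.795 over the alternatives.

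Both subunits of the TSC complex fell. Tsc2 (ENSMUSG00000002496, chromosome 17, 24595816 to 24632630, minus strand), which carries the GTPase-activating domain that acts on RHEB, had 1541, 374, 275, 959 and 771 counts in WT and 0 in each KO library. It was at least 156-fold lower in KO (counting error only), from counts summed in the same way and with 3 counts in the 5 KO libraries together as the floor (19.9 ± 14.7 TMM-scaled CPM in WT, edgeR adjusted p = 0.00163). Tsc1 (ENSMUSG00000026812, chromosome 2, 28641228 to 28691167, plus strand), which stabilises TSC2, had 136, 254, 320, 917 and 780 counts in WT and 1, 0, 2, 0 and 3 in KO. The 2 groups of Tsc1 values did not overlap, at 11.4 ± 7.27 and 0.553 ± 0.644 TMM-scaled CPM (edgeR log2 fold change −4.68 ± 1.44, SE, adjusted p = 0.0188). The Tsc1 call was lost with RLE size factors (log2 fold change −3.61, adjusted p = 0.105), and over the alternatives its adjusted p ran from 0.00422 to 0.105. Within WT libraries 2 to 5 the ratio of Tsc1 to Tsc2 per exon length was between 0.552 and 0.946, and in WT library 1 it was 0.0717. Rheb, the GTPase that the complex restrains, had 2849, 1944, 1032, 1474 and 2005 counts in WT and 19, 1, 1, 0 and 126 in KO. Its level in KO library 5 (55.2 TMM-scaled CPM) was inside the WT range of 31.0 to 81.6 CPM, and the difference did not pass (edgeR log2 fold change −1.60 ± 1.78, SE, adjusted p = 0.574). With library size alone, no KO library reached the WT range of Rheb.

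**Figure D3:**
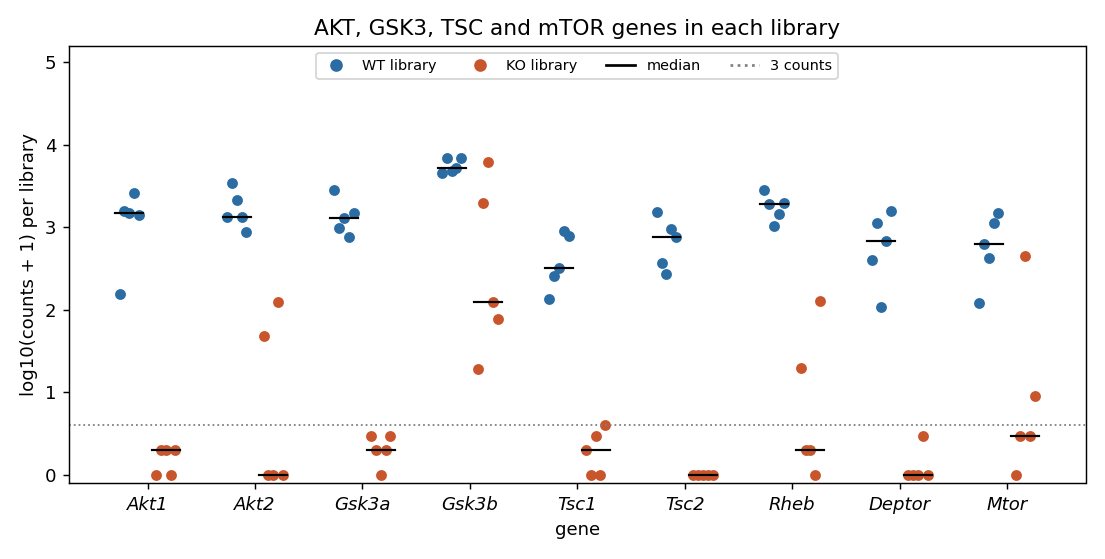
Counts per library, as log10(counts + 1), for AKT, GSK3, TSC, RHEB and mTOR genes in WT (blue) and KO (orange), with medians as bars and a dotted line at 3 counts. KO points of Akt1, Gsk3a, Tsc1, Tsc2 and Deptor lie on or under the line, and those of Akt2, Rheb and Mtor are split between libraries with counts and libraries without.

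Because c-Maf is a DNA-binding factor, the start regions of the genes that fell are shown, from 250 bases before to 50 after the start site, as RefSeq gives them for GRCm38.p6. Deptor has no entry in that table. The windows are chr12:112674835-112675134 (minus strand) for Akt1, chr17:24632578-24632877 (minus) for Tsc2, chr2:28640983-28641282 (plus) for Tsc1 and chr7:25237802-25238101 (minus) for Gsk3a. Capitals mark the core TGCTGA of a MAF half-site, on either strand (TCAGCA on the other).
Akt1: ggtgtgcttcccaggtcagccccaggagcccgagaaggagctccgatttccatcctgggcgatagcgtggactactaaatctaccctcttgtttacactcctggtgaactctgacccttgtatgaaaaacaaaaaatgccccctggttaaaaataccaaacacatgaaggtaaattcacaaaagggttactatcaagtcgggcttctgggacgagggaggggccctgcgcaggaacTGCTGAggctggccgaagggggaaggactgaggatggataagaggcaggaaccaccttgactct
Tsc2: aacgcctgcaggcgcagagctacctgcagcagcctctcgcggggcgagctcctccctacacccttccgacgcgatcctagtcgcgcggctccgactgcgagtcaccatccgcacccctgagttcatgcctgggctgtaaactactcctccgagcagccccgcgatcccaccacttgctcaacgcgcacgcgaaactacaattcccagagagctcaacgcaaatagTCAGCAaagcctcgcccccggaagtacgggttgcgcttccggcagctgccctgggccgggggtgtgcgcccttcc
Tsc1: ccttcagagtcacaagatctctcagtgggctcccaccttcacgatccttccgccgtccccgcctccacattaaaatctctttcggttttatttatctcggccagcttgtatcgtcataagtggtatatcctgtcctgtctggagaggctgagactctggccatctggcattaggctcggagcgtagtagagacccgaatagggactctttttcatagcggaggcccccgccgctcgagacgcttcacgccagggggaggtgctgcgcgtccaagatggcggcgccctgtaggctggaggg
Gsk3a: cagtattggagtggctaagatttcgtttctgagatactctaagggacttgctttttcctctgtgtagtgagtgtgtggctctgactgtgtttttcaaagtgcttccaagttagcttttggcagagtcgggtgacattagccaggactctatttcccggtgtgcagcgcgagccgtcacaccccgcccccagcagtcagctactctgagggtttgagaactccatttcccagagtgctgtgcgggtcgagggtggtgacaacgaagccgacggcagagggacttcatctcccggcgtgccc
Akt1 and Tsc2 each held 1 such half-site, its first base 14 and 25 bases before the start, and Tsc1 and Gsk3a held 0. Of the pathway genes, 27 have an entry in that table, all but Deptor, Pik3c3 and Rps6ka3, and so are not the same 27 that were tested. Of their 40 windows, 6 held the half-site, from Akt1, Akt2, Pik3cg, Rps6ka1 and Tsc2, against 19.5% of all 32851 windows. The full palindrome, which is TGCTGA, 1 C and TCAGCA, was in 0 of the 40 and in 0.00304% of all. A match is a string of letters and shows no binding.

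Of the mTOR complex genes, Deptor fell, Mtor, Rptor and Rictor did not pass, and Mlst8 had too few counts to be tested. Deptor (ENSMUSG00000022419, chromosome 15, 55112317 to 55259271, plus strand) had 406, 1118, 108, 675 and 1565 counts in WT and 0, 0, 0, 2 and 0 in KO. Its level was 18.1 ± 12.5 TMM-scaled CPM in WT and 0.057 ± 0.128 in KO. From counts summed over each genotype, as for Akt1, WT was 231 times KO (95% counting interval 63.9 to 1908, edgeR adjusted p = 0.00185). Mtor, the kinase shared by both complexes, had 122, 626, 423, 1117 and 1516 counts in WT and 0, 2, 448, 2 and 8 in KO. Of the KO counts of Mtor, 97.4% came from KO library 3, and its log2 fold change of −0.44 ± 1.60 (SE, adjusted p = 0.878 by edgeR) became −3.70 without that library (adjusted p = 0.0457). Rptor, which defines complex 1 and binds its substrates, had 4153, 4378, 1163, 3320 and 4514 counts in WT and 3, 2, 2888, 2672 and 5 in KO, so KO libraries 3 and 4 carried it (edgeR log2 fold change 0.87 ± 1.64, SE, adjusted p = 0.754). Rictor, which defines complex 2, the one that phosphorylates AKT, had 2749, 3152, 1627, 2124 and 3669 counts in WT and 1460, 108, 114, 488 and 10 in KO. In KO library 1, Rictor had the most counts of the 30 genes, at 1718 TMM-scaled CPM against 47.0 to 83.5 in WT, and without that library its log2 fold change went from 2.47 ± 1.60 (SE, adjusted p = 0.299 by edgeR) to −1.32. The log2 fold change of Rictor was −0.55 with library size alone, and with DESeq2 it passed as higher (4.73, adjusted p = 0.0129), in a range of 0.0129 to 0.921 over the alternatives. Per exon length, the ratio of Rptor to Rictor was 0.898 to 1.96 in WT libraries and 31.8, 6.88 and 0.628 in KO libraries 3, 4 and 5. Mlst8, a subunit of both complexes, had 84, 160, 25, 62 and 14 counts in WT and 0, 0, 0, 0 and 1 in KO. A share of 28.7% of its span lies in the neighbouring gene Bricd5. Where the filter kept Mlst8, it passed as lower without KO library 5 (log2 fold change −8.42, edgeR adjusted p = 0.0136) and without WT library 5 (−5.11, 0.00643), and did not pass in the other settings that tested it and kept KO library 5 (adjusted p from 0.0517 to 0.1).

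None of the 4 class I catalytic subunits passed, and each of them had KO libraries at or near 0 beside KO libraries above every WT library. Pik3cd encodes p110delta, the isoform typical of leukocytes, and had 1669, 1595, 1346, 1057 and 2120 counts in WT and 0, 1, 8867, 3268 and 18 in KO. In TMM-scaled CPM, Pik3cd was 23.4 to 48.2 in WT, 1214 and 466 in KO libraries 3 and 4, and at most 7.89 in the other KO libraries (edgeR log2 fold change 3.11 ± 1.87, SE, adjusted p = 0.26). Pik3cg encodes p110gamma, which G protein-coupled receptors activate, and had 3039, 1388, 2154, 3344 and 2569 counts in WT and 17, 2, 8408, 2 and 3830 in KO. It was above all WT libraries in KO libraries 3 and 5 and below all in KO libraries 1, 2 and 4 (edgeR log2 fold change 3.18 ± 1.79, SE, adjusted p = 0.226). Pik3ca, the ubiquitous p110alpha, had 1407, 1254, 1226, 1340 and 3177 counts in WT and 0, 216, 8627, 3645 and 367 in KO. Its log2 fold change was 3.19 ± 1.61 (SE, adjusted p = 0.17 by edgeR), and without KO library 1, which had none, it passed as higher (3.55, adjusted p = 0.0295). It also passed with DESeq2 (3.51, adjusted p = 0.0277), in a range from 0.0277 to 0.763 over the alternatives. Pik3cb, p110beta, was the weakest of the 4, with 178, 298, 617, 196 and 75 counts in WT and 0, 0, 950, 0 and 2 in KO. KO library 3 gave 99.8% of its KO counts, and without that library the log2 fold change of 1.85 ± 1.95 (SE, adjusted p = 0.547 by edgeR) became −4.98 (adjusted p = 0.025). The log2 fold changes of Pik3cb, Pik3cd and Pik3cg were negative with voom (−2.69, −2.57 and −1.23). Per exon length, the WT ratio of Pik3cd to Pik3cg was 0.426 to 1.55 with a median of 0.841, and in the 2 KO libraries with over 3 counts of both, 3 and 5, it was 1.42 and 0.00633.

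The regulatory subunits and adaptors had 0 of 4 tested genes past the threshold. Pik3r1, the p85alpha subunit that holds and stabilises the catalytic chains, had 1732, 1662, 2650, 3134 and 5385 counts in WT and 0, 1, 4, 6956 and 221 in KO. KO library 4 gave 96.9% of its KO counts, and without it the log2 fold change of 1.60 ± 1.86 (SE, adjusted p = 0.589 by edgeR) was −1.12. Pik3r5, the p101 subunit that pairs with p110gamma, had 3953, 4208, 599, 1428 and 4493 counts in WT and 4, 2, 316, 55 and 8 in KO. Only KO library 3 overlapped the WT range of Pik3r5 (43.3 against 18.0 to 113 TMM-scaled CPM), and the difference missed the threshold (edgeR log2 fold change −2.58 ± 1.57, SE, adjusted p = 0.267; exact permutation p = 0.0238, adjusted p = 0.0665). With voom it passed (−3.64, adjusted p = 0.0364), in a range from 0.0364 to 0.385 over the alternatives. Pik3ap1, the adaptor BCAP, had 1615, 2342, 297, 718 and 2771 counts in WT and 0, 0, 1, 15 and 2785 in KO. KO library 5 alone made its log2 fold change positive (2.71, SE 2.17, edgeR adjusted p = 0.412), and without that library it was −5.84 and passed (adjusted p = 0.021). Irs2, the docking protein that links insulin, IGF-1 and IL-4 receptors to PI3K, had 13591, 23837, 10541, 7368 and 14750 counts in WT and 5, 2013, 2347, 5832 and 2036 in KO. Irs2 stood at 347 ± 133 and 471 ± 379 TMM-scaled CPM (edgeR log2 fold change 0.44 ± 1.19, SE, adjusted p = 0.833), and with library size alone its log2 fold change was −0.77. Pik3r2 had 1, 2, 134, 455 and 30 counts in WT and 0 in each KO library, and was too weak for the test. Without a filter on low counts Pik3r2 passed as lower (log2 fold change −9.12, edgeR adjusted p = 0.0243), as it did with DESeq2 (−5.18, adjusted p = 0.0441), and both values rest on 3 WT libraries. Pik3r3 had 1 count over all 10 libraries. The annotated gene Gm49337 covers 96.0% of its span and 39.3% of its exon bases, where reads may go uncounted. The rest of its exon bases lie in no other annotated gene and gave at most that 1 count. Pik3c3, the class III enzyme VPS34 of autophagy and endosomes, had 925, 225, 535, 591 and 1579 counts in WT and 1, 1110, 17, 0 and 0 in KO. Its log2 fold change was 0.82 ± 1.87 (SE, adjusted p = 0.799 by edgeR), and −4.30 without KO library 2, which held 98.4% of its KO counts (adjusted p = 0.0383).

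Both lipid phosphatases, in TMM-scaled CPM, stood above all WT libraries in KO libraries 2 to 5 and below them in KO library 1, and neither passed. With library size alone this held for Inpp4b, while Inpp5d in KO library 4 lay inside the WT range. Inpp4b, which removes a phosphate from PI(3,4)P2, had 20324, 14181, 18600, 22102 and 23462 counts in WT and 11, 14283, 23045, 52083 and 7372 in KO. In TMM-scaled CPM it stood at 317 to 582 in WT, at 2143 to 7426 in KO libraries 2 to 5, and at 12.9 in KO library 1. At a log2 fold change of 2.69 (SE 1.11) it missed the threshold (edgeR adjusted p = 0.0857). Leaving out KO library 1 brought it past (3.08, adjusted p = 0.00575). With DESeq2 Inpp4b passed too (3.01, adjusted p = 0.0187), in a range of 0.0187 to 0.361 over the alternatives, and its exact permutation p, which uses all 10 libraries, was 0.5 (adjusted p = 0.638). Inpp4b spans 785 kb of chromosome 8, the longest span of the 30 genes. Inpp5d, which encodes SHIP1, the main PIP3 5-phosphatase of blood cells, had 7703, 8025, 4060, 5057 and 8475 counts in WT and 0, 4339, 3373, 2658 and 4990 in KO. Its difference did not pass (edgeR log2 fold change 2.15 ± 1.41, SE, adjusted p = 0.304), and was smaller with library size alone (0.94, adjusted p = 0.711). Without KO library 1 it passed as higher (2.72, adjusted p = 0.0293), while its adjusted p ran from 0.0812 to 0.907 over the alternatives.

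**Figure D4:**
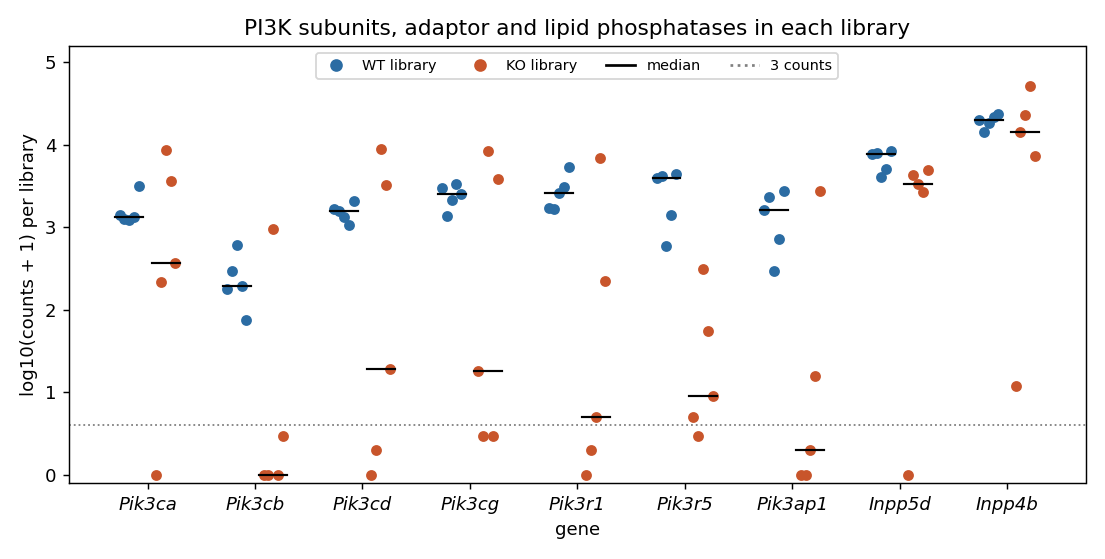
Counts per library, as log10(counts + 1), for PI3K catalytic and regulatory subunits, the adaptor Pik3ap1 and the lipid phosphatases in WT (blue) and KO (orange), with medians as bars and a dotted line at 3 counts. For the catalytic subunits, Pik3r1 and Pik3ap1, some KO points lie at or below 2 counts and at least 1 lies above all WT points. Those of Pik3r5 all lie below the WT points, and those of Inpp5d and Inpp4b lie near the WT points except in KO library 1.

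The kinases at the end of the pathway had 0 of 3 genes past the threshold. Rps6ka3 (RSK2), a kinase of the ERK and PDK1 branch, had 10835, 10957, 7338, 7124 and 11765 counts in WT and 8, 1478, 279, 281 and 428 in KO, and so was found in every library. It stood at 240 ± 56.8 and 99.4 ± 97.6 TMM-scaled CPM, with KO libraries 2 and 5 inside the WT range (edgeR log2 fold change −1.27 ± 1.28, SE, adjusted p = 0.526; exact permutation p = 0.0476, adjusted p = 0.106). Rps6ka1 (RSK1) was the steadiest of the 27 genes among WT libraries, with 2704, 2581, 2402, 3000 and 2710 counts and a coefficient of variation of 11.8%. In KO it had 1118, 0, 3, 73 and 3 counts, and without KO library 1 its log2 fold change of 1.98 ± 1.95 (SE, adjusted p = 0.515 by edgeR) was −4.44 (adjusted p = 0.0731). Rps6kb1, the S6 kinase that mTOR complex 1 activates, had 235, 642, 781, 2137 and 1013 counts in WT and 108, 1, 50, 58 and 1 in KO. Its log2 fold change was 0.30 ± 1.63 (SE, adjusted p = 0.92 by edgeR), and −2.54 with library size alone.

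Among WT libraries, levels per kilobase of merged exons placed Irs2 first, at 55.0 ± 21.1 TMM-scaled CPM per kb. Inpp4b followed at 38.0 ± 8.11, Rps6ka3 at 28.9 ± 6.83 and Inpp5d at 21.7 ± 6.15. Akt1 ranked 11th at 8.55 ± 4.81, Pik3cg 12th at 7.48 ± 2.48, Pik3cd 17th at 6.25 ± 1.64 and Mtor 25th at 1.77 ± 1.18. The ranges of neighbours in this order overlapped for all 29 neighbouring pairs except Mlst8 and Pik3r3, the last. Whether the counts hold reads from introns is not given in the sources used here. Of 806 protein-coding genes lying within introns of another gene, 98.4% were at 0 in every library, against 40.4% of genes that overlap none. If intron reads were counted, the levels and ratios per exon length given here would not compare genes properly. Per kilobase of the whole span, Irs2 was again first, Gsk3a had rank 2, Pik3cg rank 3 and Akt1 rank 4, while Inpp4b dropped to rank 17. The WT libraries themselves varied: the median coefficient of variation of the 27 genes was 43.7%, from 11.8% (Rps6ka1) to 90.1% (Pik3cb), against 55.2% for all genes tested. Of the 27, in TMM-scaled CPM, WT library 1 was the lowest WT library for Akt1, Tsc1, Mtor and Rps6kb1. It was the highest for Gsk3a, Tsc2, Rheb, Inpp4b, Inpp5d, Pik3cg, Pik3r5, Rps6ka1, Rps6ka3 and Rptor, of which Gsk3a, Tsc2 and Rheb were also highest there with library size alone.

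In KO, which genes were found differed from library to library. Over 3 counts were seen for 11, 10, 17, 17 and 15 of the 27 genes in KO libraries 1 to 5, and for all 27 in each WT library. These shares were 40.7, 37.0, 63.0, 63.0 and 55.6%, beside 18.0, 36.4, 45.4, 44.9 and 35.0% of all 7490 genes. With all libraries thinned to 3620002 counts, 10, 10, 16, 17 and 15 of the 27 remained over 3 counts in KO and all 27 in WT. Gsk3b, Inpp4b, Irs2, Rictor and Rps6ka3 were over 3 counts in all 5 KO libraries, 18.5% of the 27 against 7.06% of all genes tested. The 27 had a higher median WT level than all genes tested, at 46.9 against 16.2 TMM-scaled CPM. Their median span was also longer, at 75.4 against 31.4 kb. The part of level and length in these shares was not tested. Missing from exactly 1 KO library were 3 of the 27 (11.1%, against 10.1%). At the other end, the 5 genes that fell were missing from all 5, also 18.5%, against 22.3% of all genes. Of the 22 genes with over 100 KO counts in total, 18 had more than 50% of them from a single library, with a median of 72.7%. The same share over all genes was not computed. Among KO libraries, the median coefficient of variation was 152% for the tested pathway genes with KO counts. It was 197% for all tested genes with KO counts, so this unevenness was not particular to the pathway. Every KO library lay below every WT library for 6 of the 27 (22.2%), the 5 genes that fell and Pdpk1, against 28.9% of all genes, and for 9 (33.3%, against 37.1%) with library size alone, which adds Akt2, Rheb and Rps6ka3. Every KO library lay above every WT library for 0 of the 27, against 0.774% of all genes, or 0.294% with library size alone. The same 6 passed the exact permutation test (22.2%, against 32.2% of all genes lower), and with library size alone 11 did (40.7%, against 41.9%). Higher by that test were 0 of the 27, against 0.975% of all genes, or 0.427% with library size alone.

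**Figure D5:**
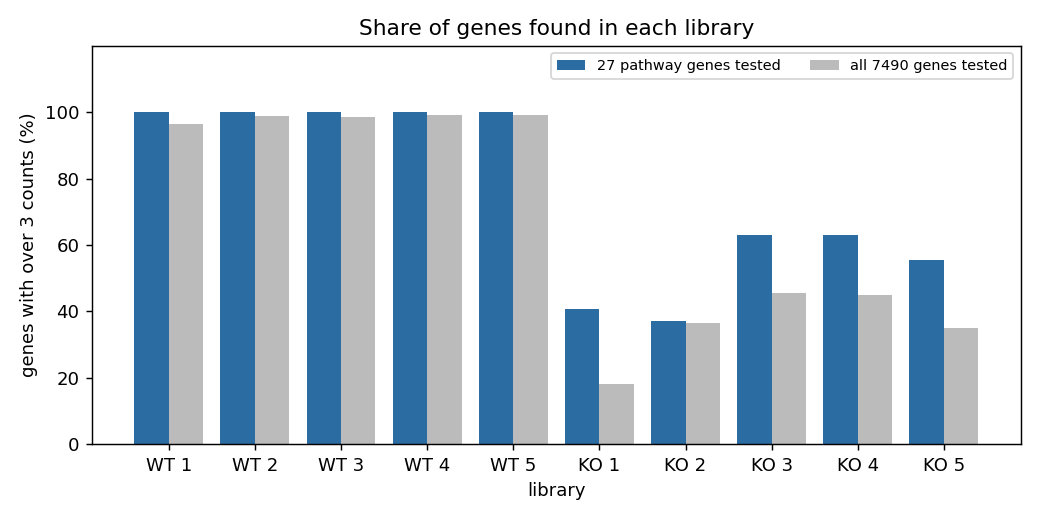
Share of genes with over 3 counts in each library, for the 27 pathway genes tested (blue) and all 7490 genes tested (grey). All 27 pathway genes are found in every WT library, and between 37.0 and 63.0% of them in a KO library.

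The 5 genes that fell had mean values in WT, not corrected for length, of 11.4 to 38.8 TMM-scaled CPM, with a median of 19.9, while the other 22 ran from 7.27 to 496 with a median of 66.4. Per kilobase of exons, Gsk3a ranked 7 and Akt1 11 of the 30, and Tsc2, Deptor and Tsc1 ranked 23, 24 and 27. Their spans were 9.59 to 147 kb with a median of 36.8 kb, and those of the other 22 were 23.8 to 785 kb with a median of 82.5 kb. Across the 27 genes, the number of KO libraries with over 3 counts had a Spearman rho of 0.776 with the mean WT level and 0.352 with the span. Over all genes tested, these were 0.543 and 0.289. These correlations describe genes that share libraries and depth.

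Other genes of the pathway, 75 in a list chosen from general knowledge, gave 49 tested genes. Of these, 14 fell (28.6%, beside the 27.1% of all genes), 0 rose and 35 did not pass, with a median log2 fold change of −0.95. By a grouping made after the values were seen, and not tested, 8 of the 14 belong to the branch that tells mTOR complex 1 of amino acids at the lysosome: Lamtor1, Lamtor2 and Lamtor3 of the Ragulator scaffold, the GTPases Rraga and Rragc, the arginine sensor Castor1, Mios of the GATOR2 complex, and Flcn, which acts on RRAGC. Lamtor1, with 1767 counts in WT and 1 in KO, had the smallest p, and Castor1 had 3158 and 1 (edgeR adjusted p = 0.00163 each). Mios had 1130 counts in WT and 1 in KO, Lamtor3 889 and 0, Flcn 973 and 0, Rragc 2801 and 0, and Rraga 904 and 0. Eif4ebp1, the translation repressor 4E-BP1 that mTOR phosphorylates, had 973 counts in WT and 0 in KO, at least 38.7-fold lower (edgeR adjusted p = 0.00163). The other genes that fell were Foxo4, Themis2, Ulk1, Pip5k1a and Gab3. Of the genes with the most counts, Eif4ebp2 had 2092 to 7523 counts in WT and 0, 1784, 21501, 13902 and 5 in KO (edgeR log2 fold change 3.24 ± 1.66, SE, adjusted p = 0.178). Rps6, the ribosomal protein that S6 kinase phosphorylates, had 6552 to 13539 counts in WT and 182, 4201, 534, 843 and 26 in KO (−0.08 ± 1.25, SE, edgeR adjusted p = 0.975). Foxo1 had 1409 to 4484 counts in WT and 0, 18403, 559, 2777 and 21 in KO (3.31 ± 1.70, SE, edgeR adjusted p = 0.178).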

How the data were processed

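Libraries were made from total RNA of sorted lung ILC2 with a stranded kit, per the labels' protocols. The authors deposited raw counts of reads per gene, 1 column per library. STAR 2.6.0c, SAMtools 1.8, HTSeq 0.9.1 and GRCm38 come from the submitters' processing notes. Annotation release, filters and strand setting are not given in these sources. Of 806 protein-coding genes lying within introns of another gene, 98.4% were at 0 in every library, against 40.4% of 11791 genes that overlap none. Low counts of a gene wholly inside another would therefore not be read as absence.

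Counts were tested with edgeR 4.0.16 (R 4.3.3): filterByExpr with a minimum count of 10, TMM, quasi-likelihood, KO against WT, Benjamini-Hochberg over 7490 genes at 0.05. The standard error is the log2 fold change divided by the square root of F. The 5 WT factors of TMM lay between 1.46 and 1.91, the KO factors between 0.18 and 0.928. No pair of libraries agreed within sampling noise. Exact permutation tests used all 252 splits of log2(TMM-scaled CPM + 1). A gene was called missing at 3 counts or fewer. Spans, exons and overlaps came from GENCODE M21. Alternatives were RLE, library size alone, DESeq2 1.42.0, voom (limma 3.58.1) with and without quality weights, other filters, thinning, a threshold of 0.01, scaling without globin and mitochondrial genes, and leaving out each library. Leaving out KO libraries 1 and 5 together and permutation by library size were added after seeing the data. The procedure was tested on simulated data. Recovery of planted changes was required only at a simulated spread far below that of these KO libraries. That step does not show how well changes are recovered here. Members, lists and tests were chosen with earlier results of these data known. Values in every library are given for the members that passed, the 12 highest per exon kilobase in WT and those found in every KO library. The other members are given likewise, chosen after their values were seen. Of the other pathway genes, the 8 that passed with the smallest p and those of the 4 with the most counts that did not pass are given with values, except 1 gene that is not reported here.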

Additional observations from a re-analysis of the deposited data

Results flagged for a closer look

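Within each genotype, a library was marked where it stood far from the nearest of the other 4 on the log2(TMM-scaled CPM + 1) scale, by Dixon's test at its 95% limit for 5 values (0.71). Chance marks about 1 in 20 groups of independent, normally distributed values, which log counts with zeros from shared libraries are not. Here 11 of 57 groups were marked (19.3%), 3 in WT and 8 in KO. The rate over all genes was not computed, so this share is not a result about the pathway. In WT, these were Akt1 in library 1 (4.5 CPM), Inpp4b in library 2 (317 CPM) and Pik3r3 in library 3 (0.0300 CPM, from 1 count). KO library 1 stood low for Inpp4b (12.9 CPM), Irs2 (5.88 CPM) and Inpp5d (0 CPM). KO library 5 stood high for Pik3ap1 (1220 CPM), KO library 3 for Pik3cb (130 CPM) and KO library 2 for Pik3c3 (167 CPM). Deptor in KO library 4 (0.285 CPM, from 2 counts) and Mlst8 in KO library 5 (0.438 CPM, from 1 count) were marked because all other KO libraries were at 0.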

How the results depend on the processing

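No paired analysis was possible because the labels give the libraries no number that WT and KO share. Of the 5 lower pathway genes, Akt1, Tsc2 and Deptor passed under every alternative run. Gsk3a and Tsc1 were lost with RLE size factors and at a threshold of 0.01, which each left 3 lower genes, and kept in the others. The count of lower pathway genes was 8 with voom, 10 with voom and quality weights, 8 without KO libraries 1 and 5, and 5 to 7 when single libraries were left out. The count of higher pathway genes was 3 with DESeq2, 2 without KO libraries 1 and 5, and 0 to 3 when single libraries were left out. Calls over all genes, given below, moved in these settings too. Whether the pathway's counts moved more than those of all genes was not tested. The number of genes tested changed with the filter, DESeq2, thinning and the libraries left out. At 0 counts in place of 3, 3 of the 30 genes were missing from all KO libraries in place of 8. Over all genes, lower calls were 2027 of 7490 in the main fit, 2487 of the same 7490 with voom and 2816 of them with quality weights added. With DESeq2, lower calls were 2551. Lower calls over all genes were 1173 with a minimum count of 50, 1286 after thinning and 3291 without KO libraries 1 and 5. With single libraries left out, they ran from 1734 to 3350. Higher calls were 193 with RLE, 49 with library size alone, 1470 with DESeq2, 71 with voom, 2345 without a filter, 50 with a minimum count of 50, 46 after thinning, 40 at 0.01, 348 without KO libraries 1 and 5, and 82 to 333 for single libraries left out. Lower calls among the other pathway genes were 23 without a filter, 7 with a minimum count of 50, 7 after thinning, 26 without KO libraries 1 and 5, and 12 to 28 for single libraries left out. Higher ones were 2 with DESeq2, 1 without a filter, 2 without KO libraries 1 and 5, and 0 to 4 for single libraries left out. Past the exact permutation test, 11 of the 27 were lower with library size alone.

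Quality weights added Akt2 (−4.89), Rheb (−4.34) and Rps6ka1 (−4.07) to the lower calls. Signs of log2 fold changes turned for genes that had not passed. Akt2 was 0.42 with RLE and 0.32 with DESeq2. With library size alone, Rps6ka1 was −1.23, Rps6kb1 −2.54, Gsk3b −0.23, Rptor −0.20, Pik3c3 −0.40, Irs2 −0.77 and Rictor −0.55. With voom, Rps6ka1 was −2.94, Rps6kb1 −1.72, Pik3cg −1.23, Gsk3b −0.70, Pik3ap1 −3.55, Rptor −3.12, Pik3cb −2.69, Pik3c3 −3.41, Irs2 −0.22, Pik3cd −2.57, Pik3r1 −3.65 and Rictor −0.20. With quality weights added these were −4.07, −2.66, −0.61, −1.10, −3.00, −2.79, −2.51, −3.64, −0.41, −1.56, −3.07 and −0.43. Without KO libraries 1 and 5, Rps6ka1 was −4.26, Rps6kb1 −2.22, Pik3ap1 −5.65, Mtor 0.17 and Rictor −1.0. With single libraries left out, the range was −4.44 to 2.95 for Rps6ka1, −2.55 to 1.21 for Rps6kb1, −0.54 to 1.09 for Gsk3b, −5.84 to 3.50 for Pik3ap1, −4.98 to 2.52 for Pik3cb, −4.30 to 1.18 for Pik3c3, −1.12 to 1.97 for Pik3r1 and −1.32 to 3.41 for Rictor. The cause of these moves was not tested. KO depth limits the test: at 3620002 counts, a gene at or under 3 counts is not shown to be absent.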

Other observations

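The 30 pathway genes together took 0.343 to 0.509% of all counts in WT libraries and 0.0593, 0.287, 0.763, 0.809 and 0.616% in KO libraries 1 to 5. Inpp4b alone was 13.3 to 25.9% of the pathway's counts in WT. In KO libraries 2 to 5 Inpp4b was 54.8, 34.9, 65.2 and 33.1% of them, above each WT library, and in KO library 1 it was 0.39%. Shares of counts grow with gene length and are not levels. The pathway gene with the most counts was Irs2 in WT library 2, Rictor in KO library 1, and Inpp4b in the other 8 libraries.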
